A study of Mus musculus with 15 samples.

Results

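The genes described here are 7 transcripts known from aldosterone-responsive epithelia, measured in the mouse hippocampus: Sgk1 and Sgk3, Nedd4l, Scnn1a, Atp1b1, Atp1b2 and Ndrg2. They were chosen by name, with earlier results of these data known, through array probes whose accession resolves to one of these symbols. They were found on 8 probes among 31758 genes on the array, of which 22872 were bright enough to be tested. All 7 were tested, each on 1 probe that was well above background on all 15 arrays. The arrays measured total RNA of the whole hippocampus of male C57BL/6 mice aged about 2.5 months. The 4 dflox control arrays came from mice with floxed alleles of both Nr3c1, which encodes the glucocorticoid receptor (GR), and Nr3c2, which encodes the mineralocorticoid receptor (MR). In 4 GREmx1-cre arrays the floxed GR allele met Emx1-Cre, in 4 MREmx1-cre arrays the floxed MR allele did, and in 3 GRMREmx1-cre arrays both did. Emx1-Cre is active in the progenitors of forebrain excitatory neurons and of much of the local glia, so that interneurons, microglia and vessel cells of these hippocampi keep their receptors. The labels do not say that the arrays of a group came from separate mice, and p-values measure the spread between these samples.

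In the kidney, aldosterone acts through MR to raise transcription of Sgk1, a serine/threonine kinase. The kinase phosphorylates Nedd4l, a ubiquitin ligase that otherwise removes the epithelial sodium channel from the cell surface, and sodium that enters through the channel leaves by the sodium potassium ATPase. GR binds the same DNA element as MR, and the hippocampus has both receptors, MR with the higher affinity for corticosterone. In brain, Sgk1 is known as a transcript that glucocorticoids raise, while Atp1b1 and Atp1b2 serve neuronal and glial ion pumps and Ndrg2 is known as an astrocyte-rich gene.

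Levels are log2 intensities relative to the 75th percentile of the same array, and can be compared between arrays for 1 gene but not between genes. A gene is said to rise or fall where limma's adjusted p, over all 22872 genes, was under 0.05. The 75th percentile was 821 to 1027 intensity units and 28092 to 30215 probes were well above background on each array. Nr3c1 was reduced to 21.2% of dflox where GR alone was targeted, and to 32.1% where both receptors were, and it rose to 145% in MREmx1-cre (adjusted p = 0.00165). Nr3c2 did not pass the test in MREmx1-cre (log2 difference from dflox -0.11 ± 0.086 SE, adjusted p = 0.48) and fell in GRMREmx1-cre (-0.31 ± 0.093, adjusted p = 0.0394), while it rose to 134% of dflox in GREmx1-cre (adjusted p = 0.0212). Against GREmx1-cre it was lower in MREmx1-cre (-0.54, adjusted p = 0.00203) and in GRMREmx1-cre (-0.73, adjusted p = 0.000383). Of its other probes, which are dimmer, 1 was lower on every MREmx1-cre array (-4.90 to -4.09) than on any dflox array (-4.02 to -3.38) but overlapped dflox in GRMREmx1-cre (-4.38 to -3.21), and 1 had means of -5.08 in dflox, -5.46 in MREmx1-cre and -5.38 in GRMREmx1-cre, with overlapping arrays. No source used here places the Nr3c2 probes relative to the deleted exons, so how far they check the MR labels is not known. Each genotype was hybridised on a slide of its own, so that effects of slide and of genotype cannot be told apart. The group names give Emx1-Cre to every knockout line and not to dflox. In comparisons with dflox, and in the interaction described below, an effect of Cre itself therefore cannot be told apart from receptor loss. In 2 arrays, markers of neighbouring tissue stood apart: the summed linear level of 8 choroid plexus markers was 1.52 in MREmx1-cre replicate 2 against 24.9 to 78.4 on the other arrays, and the thalamus and habenula markers of GREmx1-cre replicate 1 had the highest mean (0.87 log2 above the mean of all arrays).

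Every change called among the 7 genes was a fall. In GREmx1-cre against dflox, 1 of 7 fell (Sgk1), where 0.888% of all genes tested fell and 3.15% changed in either direction. In MREmx1-cre, 2 of 7 fell (Sgk1 and Nedd4l), where 2.6% of all genes fell and 6.8% changed. With both receptors removed, 3 of 7 fell (Sgk1, Nedd4l and Atp1b1), where 4.84% of all genes fell and 16.3% changed. The median log2 difference of the 7 genes from dflox was -0.06 in GREmx1-cre, -0.20 in MREmx1-cre and -0.24 in GRMREmx1-cre, beside 0.02, 0.04 and 0.03 over all genes. These comparisons share the dflox arrays.

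**Figure D1:**
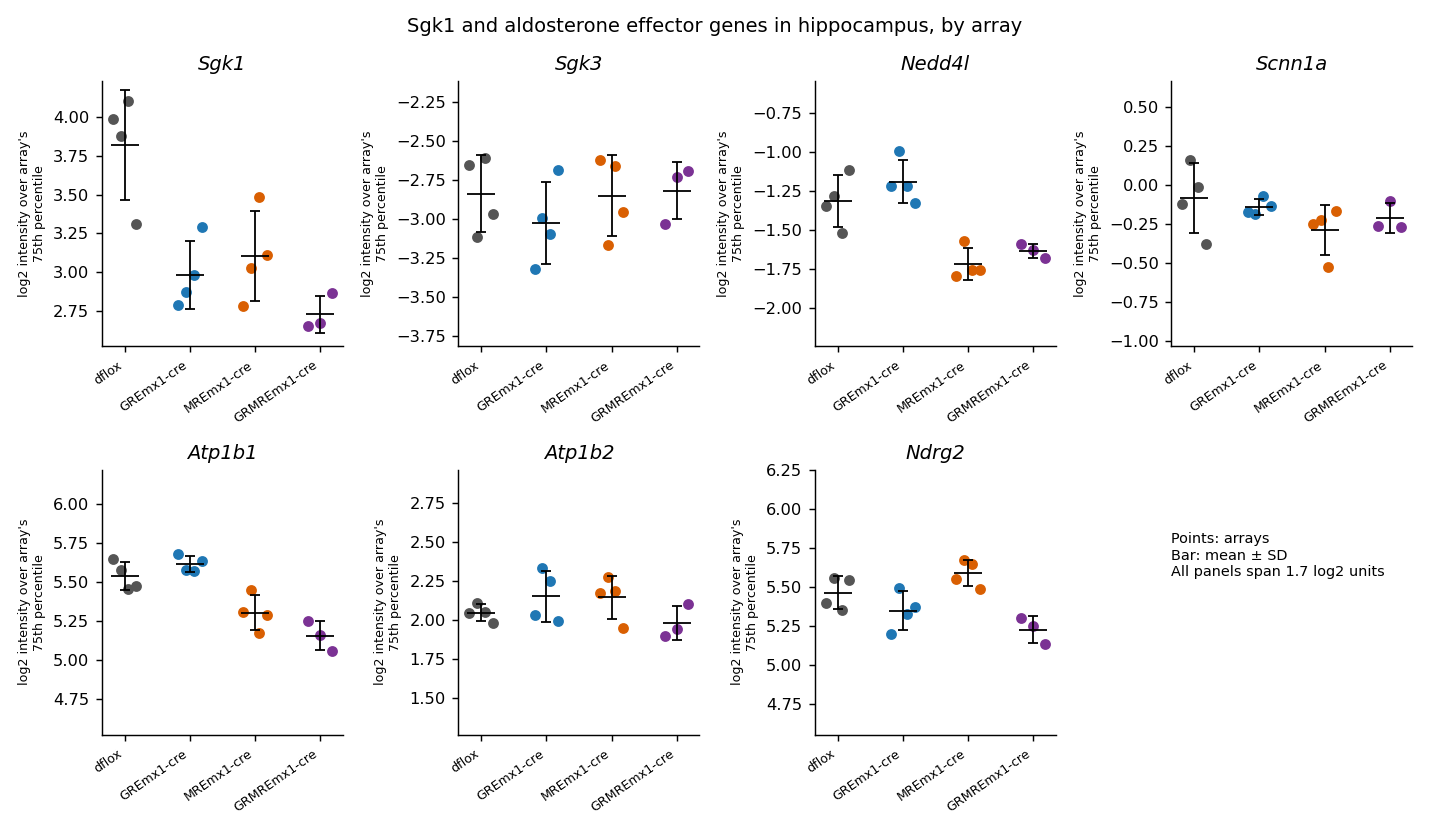
Log2 intensity over the 75th percentile of the array for each of the 7 genes (y axis, a span of 1.7 log2 units in every panel) in the 4 groups (x axis), with a point per array and the mean ± SD. Sgk1 is highest in 3 of the 4 dflox arrays, and Nedd4l and Atp1b1 are lower in MREmx1-cre and GRMREmx1-cre than in the groups that keep MR.

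Among the 7 genes, Sgk1 had the largest differences from dflox in all 3 lines. The 3 sequences below are shown because RefSeq lists 6 start sites for Sgk1, of which 1 has a full corticosteroid receptor element within the window shown, and because Atp1b1 fell in the double knockout without such letters in its window. The windows run from 250 bases before to 50 bases after a start site (RefSeq, build GRCm38.p6, 5' to 3' on the strand of the gene), and capitals mark the palindrome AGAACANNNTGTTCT, to which GR and MR bind.
Sgk1, start 5, chr10:21993640-21993939, plus strand: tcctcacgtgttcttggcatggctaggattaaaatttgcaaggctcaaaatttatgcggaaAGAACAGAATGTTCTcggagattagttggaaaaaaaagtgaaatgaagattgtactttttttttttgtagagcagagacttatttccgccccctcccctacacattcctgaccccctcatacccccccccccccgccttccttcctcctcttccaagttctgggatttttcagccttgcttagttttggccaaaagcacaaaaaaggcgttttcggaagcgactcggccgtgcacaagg
Sgk1, start 6, chr10:21994416-21994715, plus strand: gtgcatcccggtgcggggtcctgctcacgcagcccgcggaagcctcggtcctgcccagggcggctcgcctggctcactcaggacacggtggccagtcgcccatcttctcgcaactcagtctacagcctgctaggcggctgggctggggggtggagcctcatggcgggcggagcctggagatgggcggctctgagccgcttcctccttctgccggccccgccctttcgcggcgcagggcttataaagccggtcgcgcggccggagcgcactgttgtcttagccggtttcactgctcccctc
Atp1b1, chr1:164458306-164458605, minus strand: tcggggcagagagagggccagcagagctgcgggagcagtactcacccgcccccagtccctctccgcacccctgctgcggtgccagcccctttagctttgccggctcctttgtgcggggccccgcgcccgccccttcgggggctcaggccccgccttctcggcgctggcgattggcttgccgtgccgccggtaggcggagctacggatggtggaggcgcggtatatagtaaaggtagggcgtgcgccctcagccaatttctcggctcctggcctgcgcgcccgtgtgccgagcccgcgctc
The palindrome stands at position -189 from start 5 of Sgk1 and at -965 from start 6, at chr10:21993701-21993715. It was searched on both strands, and 3 of 32851 windows in the table (0.00913%) hold it, those of Sgk1, Acnat2 and Gm35041. Either arm alone, AGAACA or TGTTCT, which the palindrome also contains, is in 19% of windows. Windows of 3 of the 7 genes were in the table (6 of Sgk1, 1 of Atp1b1 and 3 of Ndrg2), and the palindrome was in 1 of those 10 windows. Of 8 other corticosteroid-induced genes, 7 had windows and 0 held the palindrome. A match of letters is a description of the window, not a measure of binding.

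Sgk1 levels were 3.98, 3.88, 4.10 and 3.31 in dflox, 2.79, 2.87, 2.98 and 3.29 in GREmx1-cre, 2.79, 3.03, 3.49 and 3.11 in MREmx1-cre, and 2.65, 2.67 and 2.87 in GRMREmx1-cre. The dflox array at 3.31 stood well under the other dflox arrays, yet all GREmx1-cre and GRMREmx1-cre arrays lay below it, and 1 MREmx1-cre array lay above it. Sgk1 fell to 56.1% of the dflox level in GREmx1-cre (log2 difference -0.83 ± 0.18 SE, adjusted p = 0.0261). In MREmx1-cre it fell to 60.9% (-0.71 ± 0.18, adjusted p = 0.0322), and in GRMREmx1-cre to 47.1% (-1.09 ± 0.19, adjusted p = 0.00243). A lower level in whole hippocampus can come from fewer cells of a type or from less RNA per cell, which cannot be told apart here.

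Ordered by group mean, Sgk1 stood at 3.82 ± 0.35 (SD, n = 4) in dflox, 3.10 ± 0.29 (n = 4) in MREmx1-cre, 2.98 ± 0.22 (n = 4) in GREmx1-cre and 2.73 ± 0.12 (n = 3) in GRMREmx1-cre. The 3 knockout lines did not differ from one another beyond their spread: GRMREmx1-cre differed from GREmx1-cre by -0.25 (95% interval -0.67 to 0.17), GRMREmx1-cre from MREmx1-cre by -0.37 (-0.79 to 0.05), and MREmx1-cre from GREmx1-cre by 0.12 (-0.27 to 0.51). The interaction, which is the effect of losing MR where GR is absent minus the effect of losing MR where GR is present, was 0.46 for Sgk1 (-0.11 to 1.03, adjusted p = 0.41). The log2 differences of the single knockouts, -0.83 and -0.71, thus sum to a larger fall than the measured -1.09, by an amount that the test did not separate from 0.

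The Sgk1 fall in GRMREmx1-cre was called under all 25 alternative settings. In GREmx1-cre the call was lost without any of dflox replicates 1, 2 and 3 or GREmx1-cre replicates 1, 2 and 3 (difference -1.003 to -0.74, adjusted p 0.00802 to 0.0857 over the arrays left out), and in MREmx1-cre without any of dflox replicates 1, 2 and 3 or MREmx1-cre replicates 1, 2 and 4 (-0.88 to -0.61, adjusted p 0.00828 to 0.0839). Without the 2 arrays that stood apart in choroid plexus and thalamus markers, the differences were -0.77 (adjusted p = 0.0877) in GREmx1-cre and -0.69 (adjusted p = 0.0792) in MREmx1-cre. Sgk1 is also known from oligodendrocytes, and of 8 tested oligodendrocyte markers limma called 0 in any comparison with dflox (at an unadjusted p under 0.05, 1 in GREmx1-cre, 1 in MREmx1-cre and 0 in GRMREmx1-cre). Their summed linear level spanned 172 to 208 in dflox, 181 to 229 in GREmx1-cre, 199.6 to 219 in MREmx1-cre and 175 to 195 in GRMREmx1-cre. Each line overlapped dflox, while the GRMREmx1-cre arrays lay wholly below those of MREmx1-cre. The part of the oligodendrocyte markers in the Sgk1 result was not tested. Of 8 tested choroid plexus markers limma called 0 in these comparisons (0 also at an unadjusted p under 0.05), with summed levels of 27.8 to 78.4, 27.8 to 62.2, 1.52 to 68.0 and 24.9 to 34.1 in the same order of groups. The MREmx1-cre array at 1.52 had Sgk1 at 3.03, within its group. In each group, however, the array with the highest choroid plexus sum also had the highest Sgk1. These Sgk1 levels were 4.10 in dflox, 3.29 in GREmx1-cre, 3.49 in MREmx1-cre and 2.87 in GRMREmx1-cre. The part of the choroid plexus markers in the Sgk1 result was not tested. Of 7 meningeal fibroblast markers, 2 fell in each of the 3 lines and 1 rose in GRMREmx1-cre, with summed levels of 20.9 to 36.9, 23.7 to 31.2, 30.3 to 33.5 and 13.7 to 37.0. The sum of 13.7, in GRMREmx1-cre replicate 1, may not cover all 7 markers. Only 6 counted as well above background there, and flagged spots drop out of the sums. The mean log2 level of that array was -0.083 relative to all arrays, in a group that spanned -0.083 to 0.079. The part of these markers in the Sgk1 result was not tested.

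Sgk3, a kinase of the same family that is bound to endosomes, passed no test in any comparison. Its levels were -2.66, -3.12, -2.61 and -2.97 in dflox, -3.32, -2.99, -3.10 and -2.69 in GREmx1-cre, -2.62, -3.17, -2.66 and -2.95 in MREmx1-cre, and -3.03, -2.73 and -2.70 in GRMREmx1-cre. The groups overlapped throughout. The 95% interval of the difference from dflox was -0.54 to 0.17 in GREmx1-cre, -0.37 to 0.34 in MREmx1-cre and -0.36 to 0.40 in GRMREmx1-cre, which leaves room for a change of modest size in either direction.

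Nedd4l fell in both lines without MR. The levels were -1.35, -1.28, -1.52 and -1.11 in dflox, -1.22, -0.99, -1.22 and -1.32 in GREmx1-cre, -1.79, -1.57, -1.75 and -1.76 in MREmx1-cre, and -1.59, -1.63 and -1.68 in GRMREmx1-cre. Every array of the lines without MR lay below every array of the groups with MR, by a narrow margin between -1.57 and -1.52. Against dflox, Nedd4l fell to 75.6% in MREmx1-cre (-0.40 ± 0.088, adjusted p = 0.0171) and to 80.2% in GRMREmx1-cre (-0.32 ± 0.096, adjusted p = 0.0386). In GREmx1-cre its difference was 0.13 (95% interval -0.07 to 0.32).

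Among the knockouts, Nedd4l stood lowest in the lines without MR. It was lower in MREmx1-cre than in GREmx1-cre (-0.53 ± 0.088, adjusted p = 0.00268) and lower in GRMREmx1-cre than in GREmx1-cre (-0.44 ± 0.096, adjusted p = 0.00794), while GRMREmx1-cre and MREmx1-cre differed by 0.08 (-0.12 to 0.29). The interaction was -0.04 (-0.32 to 0.24). The GRMREmx1-cre call against dflox was lost without any of dflox replicates 1, 2 and 4, GREmx1-cre replicate 3 and each GRMREmx1-cre replicate (-0.39 to -0.25, adjusted p 0.014 to 0.114), and normexp background correction turned its sign (0.17, where all genes shifted by a median of 0.42). It was also lost with no filter on dim probes and with only the groups compared in the fit. The MREmx1-cre call against dflox held with any 1 array left out and was lost with normexp, as was that against GREmx1-cre, and with only the groups compared. Nedd4l lies on the same chromosome as Nr3c1, with 141 protein-coding genes between them in RefSeq.

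Scnn1a, the alpha subunit of the epithelial sodium channel, was not called in any comparison. Its levels were -0.12, 0.16, -0.01 and -0.38 in dflox, -0.18, -0.19, -0.07 and -0.13 in GREmx1-cre, -0.25, -0.23, -0.53 and -0.16 in MREmx1-cre, and -0.26, -0.10 and -0.27 in GRMREmx1-cre. The dflox arrays alone spanned most of that range. The difference from dflox was -0.06 (95% interval -0.28 to 0.17) in GREmx1-cre, -0.20 (-0.43 to 0.02) in MREmx1-cre and -0.13 (-0.37 to 0.12) in GRMREmx1-cre. A second Scnn1a probe was well above background on 0 of 15 arrays and was not tested, so that the 2 probes disagree on whether the transcript is measurable.

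Atp1b1, the beta subunit of the neuronal and epithelial sodium potassium pump, was lower in both lines without MR than in GREmx1-cre. Levels were 5.65, 5.58, 5.45 and 5.48 in dflox, 5.68, 5.58, 5.57 and 5.63 in GREmx1-cre, 5.31, 5.45, 5.17 and 5.29 in MREmx1-cre, and 5.25, 5.16 and 5.06 in GRMREmx1-cre. The highest array without MR (5.447) lay just under the lowest with MR (5.453). Atp1b1 fell to 76.7% of dflox in GRMREmx1-cre (-0.38 ± 0.072, adjusted p = 0.00325). In MREmx1-cre it was at 84.9% of dflox and did not pass the test (-0.24 ± 0.066, adjusted p = 0.0519), although all 4 arrays lay below all 4 dflox arrays.

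Against GREmx1-cre, Atp1b1 was lower in both lines without MR, by -0.31 ± 0.066 in MREmx1-cre (adjusted p = 0.0113) and by -0.46 ± 0.072 in GRMREmx1-cre (adjusted p = 0.00124). The 2 falls in GRMREmx1-cre were called under all 25 alternatives. The interaction was -0.22 (95% interval -0.44 to -0.01), which had an unadjusted p of 0.0393 and an adjusted p of 0.27.

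Nedd4l and Atp1b1 were the 2 of 7 genes that lay lower on all 7 arrays without MR than on all 8 arrays with MR, where 1.81% of all genes did so and 4.01% separated in either direction. With quantile normalization and with normexp this held for Atp1b1 only, and with median scaling for 0 of 7. None of the 7 separated the 7 arrays without GR from the other 8, where 0.564% of all genes did (0.166% lower). Markers of dentate granule cells moved with this separation: of 7 tested, 4 fell in MREmx1-cre and 5 in GRMREmx1-cre against dflox, and 6 fell in each of these lines against GREmx1-cre. Their summed linear level spanned 18.4 to 27.6 in dflox, 23.2 to 28.6 in GREmx1-cre, 11.2 to 14.1 in MREmx1-cre and 10.1 to 12.5 in GRMREmx1-cre, with all 7 well above background on every array. Microglia markers moved the opposite way: of 9 tested, 3 rose in MREmx1-cre and 6 in GRMREmx1-cre against dflox, and 1 in GREmx1-cre. Their summed level was 35.8 to 39.6 in dflox, 38.4 to 41.8 in GREmx1-cre, 42.7 to 45.3 in MREmx1-cre and 44.9 to 53.2 in GRMREmx1-cre, so that all 7 arrays without MR lay above all 8 with it. The part of both marker lists in the Nedd4l and Atp1b1 results was not tested. Of 8 general neuron markers, limma called 0 in GREmx1-cre (2 at an unadjusted p under 0.05), 2 fell in MREmx1-cre, and 3 fell and 1 rose in GRMREmx1-cre, with summed levels of 165 to 202 in dflox, 179.5 to 200.5 in GREmx1-cre, 161 to 175 in MREmx1-cre and 145 to 159 in GRMREmx1-cre.

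**Figure D2:**
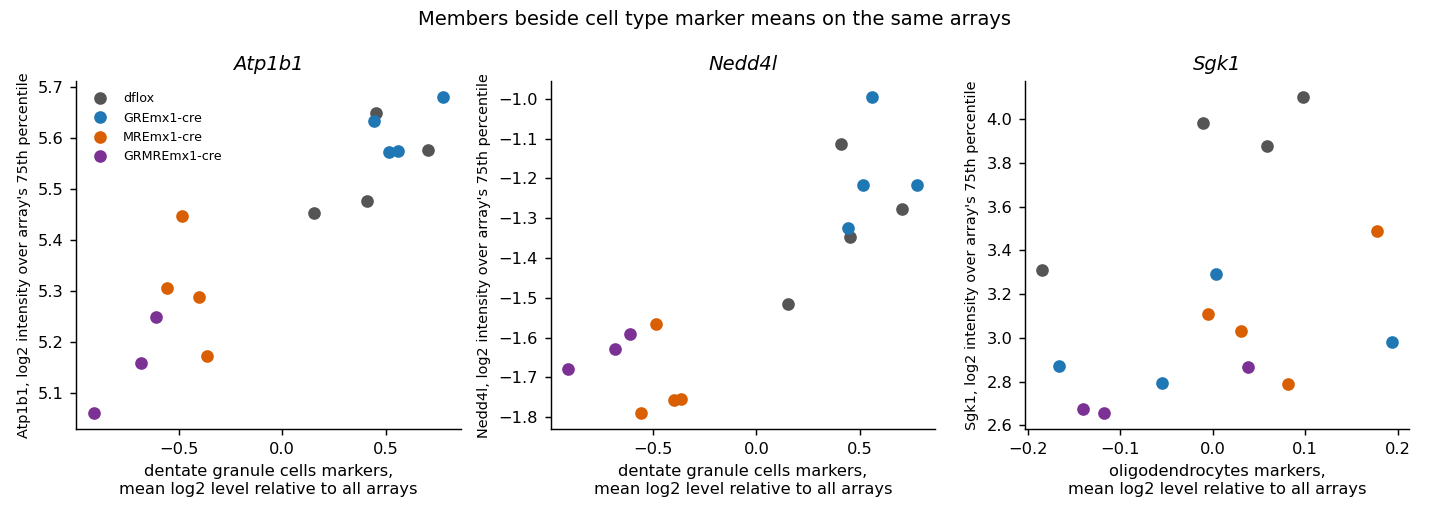
Level of Atp1b1 and Nedd4l (y axis, log2 intensity over the 75th percentile) against the mean of the dentate granule cell markers on the same array (x axis, log2 relative to all arrays), and of Sgk1 against the oligodendrocyte markers, with a point per array coloured by group. MREmx1-cre and GRMREmx1-cre arrays form a low cluster apart from the other groups in the Atp1b1 and Nedd4l panels, and the groups overlap along the oligodendrocyte axis.

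Atp1b2, the pump's beta subunit known from astrocytes, was not called in any comparison. Its levels were 2.04, 2.11, 2.05 and 1.98 in dflox, 2.03, 2.33, 2.25 and 1.99 in GREmx1-cre, 2.17, 2.27, 2.18 and 1.95 in MREmx1-cre, and 1.90, 1.94 and 2.10 in GRMREmx1-cre. All groups overlapped. The 95% interval of the difference from dflox was -0.08 to 0.30 in GREmx1-cre, -0.09 to 0.29 in MREmx1-cre and -0.27 to 0.14 in GRMREmx1-cre. The difference between Atp1b1 and Atp1b2 in their response was not tested.

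Ndrg2, whose product is of the NDRG family that SGK kinases phosphorylate, differed between the double knockout and MREmx1-cre. Its levels were 5.40, 5.56, 5.35 and 5.55 in dflox, 5.20, 5.50, 5.33 and 5.37 in GREmx1-cre, 5.55, 5.67, 5.65 and 5.49 in MREmx1-cre, and 5.30, 5.25 and 5.13 in GRMREmx1-cre. The GRMREmx1-cre arrays lay below all dflox and MREmx1-cre arrays and overlapped GREmx1-cre. Ndrg2 was lower in GRMREmx1-cre than in MREmx1-cre by -0.36 ± 0.079 (adjusted p = 0.0287). Against dflox its GRMREmx1-cre difference was -0.24 ± 0.079 (adjusted p = 0.0605), and its MREmx1-cre difference 0.13 (95% interval -0.03 to 0.28).

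The call of Ndrg2 held under 17 of 25 alternatives, and was lost with median scaling, with only the groups compared in the fit, without MREmx1-cre replicate 2 or 3, without each GRMREmx1-cre replicate, and without both arrays that stood apart (leaving out 1 array, -0.40 to -0.32, adjusted p 0.0207 to 0.114). Its interaction was -0.25 (95% interval -0.48 to -0.01, unadjusted p = 0.0395, adjusted p = 0.27). Of 10 astrocyte markers, 2 rose and 1 fell in GRMREmx1-cre against MREmx1-cre, and 4 rose and 2 fell in GRMREmx1-cre against dflox. Their summed linear level spanned 216 to 238 in dflox, 210.3 to 229 in GREmx1-cre, 225 to 254 in MREmx1-cre and 210.4 to 235 in GRMREmx1-cre, and their part in the Ndrg2 result was not tested.

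Among the knockout lines, 2 of 7 genes fell in GRMREmx1-cre against GREmx1-cre (Nedd4l and Atp1b1), where 6.91% of all genes fell and 16.1% changed in either direction. The same 2 fell in MREmx1-cre against GREmx1-cre, where 4.42% of all genes fell and 9.33% changed, and the 2 comparisons share the GREmx1-cre arrays. In GRMREmx1-cre against MREmx1-cre, 1 of 7 fell (Ndrg2), where 0.625% of all genes fell and 2.98% changed. For the interaction limma called 0 of 7, with 2 of 7 at an unadjusted p under 0.05 (Atp1b1 and Ndrg2), where 1.29% of all genes were called (0.778% in the negative direction).

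**Figure D3:**
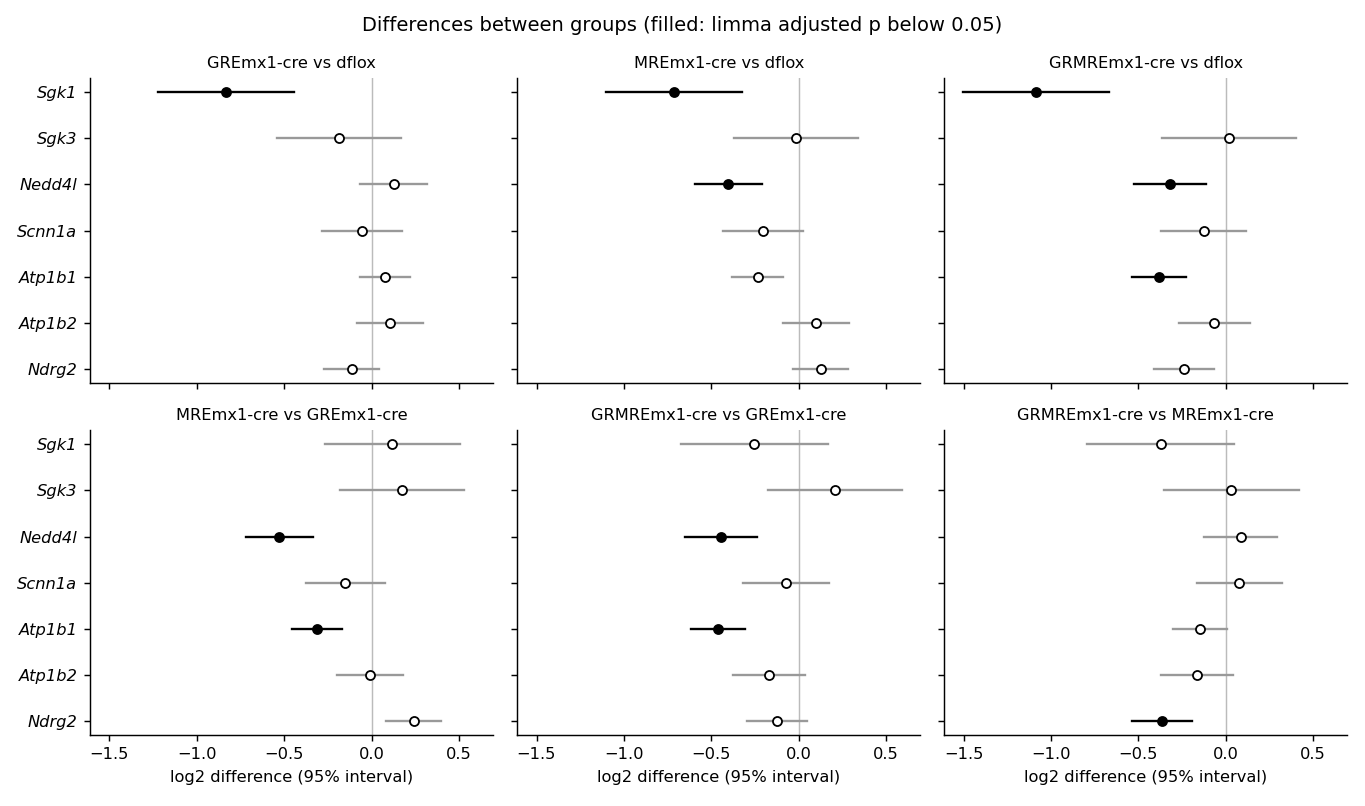
Log2 difference between groups (x axis) with its 95% interval for the 7 genes (y axis) in the 6 comparisons of 2 groups, with filled points where limma's adjusted p is below 0.05. Sgk1 is the only filled point in GREmx1-cre against dflox, and Nedd4l and Atp1b1 are filled in both comparisons of a line without MR with GREmx1-cre.

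In the 4 lists of sodium channel, pump, SGK and WNK genes, Fxyd6 in MREmx1-cre was the only gene that limma called in a single knockout against dflox. Over all genes tested, 3.15% were called in GREmx1-cre, 6.8% in MREmx1-cre and 16.3% in GRMREmx1-cre against dflox. More calls in GRMREmx1-cre are thus not particular to these lists. None of the 8 tested partners of the epithelial sodium channel (the gamma subunit Scnn1g, channel-cleaving proteases, the ubiquitin ligase Nedd4, the 14-3-3 proteins Ywhab and Ywhae, Cnksr3 and Usp10) was called in any line against dflox (at an unadjusted p under 0.05, 1 in GREmx1-cre and 0 in the other lines), and the beta subunit Scnn1b was too dim to test. Their median log2 difference was -0.05 in GREmx1-cre, 0.08 in MREmx1-cre and 0.04 in GRMREmx1-cre. Of these 8, Ywhab fell in GRMREmx1-cre against GREmx1-cre (-0.16 ± 0.050, adjusted p = 0.0438), and is named after its values were seen.

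Of 8 other tested beta and FXYD subunit genes of the sodium potassium ATPase, limma called 0 in GREmx1-cre (0 also at an unadjusted p under 0.05), while 1 rose in MREmx1-cre and 3 rose in GRMREmx1-cre against dflox. Their median log2 difference from dflox was -0.0015 in GREmx1-cre, 0.11 in MREmx1-cre and 0.24 in GRMREmx1-cre. The genes that rose were of the FXYD family of small pump regulators.

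Fxyd6 levels spanned 5.69 to 6.04 in dflox, 6.00 to 6.29 in GREmx1-cre, 6.37 to 6.67 in MREmx1-cre and 6.19 to 6.70 in GRMREmx1-cre. The lines without MR lay wholly above dflox. Fxyd6 rose by 0.61 ± 0.12 in MREmx1-cre (adjusted p = 0.00801) and by 0.62 ± 0.12 in GRMREmx1-cre (adjusted p = 0.00511). In GREmx1-cre its difference was 0.24 ± 0.12 and was not called (adjusted p = 0.28). A second probe gave 0.39 ± 0.13 in GREmx1-cre (limma's unadjusted p = 0.00888), 0.76 ± 0.13 in MREmx1-cre and 0.83 ± 0.14 in GRMREmx1-cre. Fxyd7 (0.36 ± 0.099, adjusted p = 0.0261) and Fxyd3 (0.55 ± 0.17, adjusted p = 0.0477) also rose in GRMREmx1-cre, and are named after their values were seen.

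Of 14 regulators and substrates of SGK kinases, which include Pdpk1 and Rictor of the activating kinases and the transcription factors Foxo1 and Foxo3, 0 were called in the single knockouts (2 at an unadjusted p under 0.05 in each) and 2 fell in GRMREmx1-cre. Ndrg3 fell by -0.20 ± 0.055 (adjusted p = 0.0251), with a second probe at -0.32 ± 0.10. Prr5, a subunit of the mTORC2 kinase complex, fell by -0.69 ± 0.21 (adjusted p = 0.0423) in a fit without GRMREmx1-cre replicate 2, whose spot carried an outlier flag. With flagged spots kept the Prr5 difference was 1.93 (adjusted p = 0.39).

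WNK kinases regulate sodium, potassium and chloride transport and, with SGK1, belong to the aldosterone response of the distal nephron. Of 13 tested WNK and cation chloride cotransporter genes, 0 were called in the single knockouts (at an unadjusted p under 0.05, 2 in GREmx1-cre and 3 in MREmx1-cre), and 2 fell and 1 rose in GRMREmx1-cre. Wnk4 fell to 54.2% of dflox (-0.88 ± 0.20, adjusted p = 0.00962), with levels of -3.82 to -3.55 in GRMREmx1-cre and -3.04 to -2.54 in dflox. Slc12a7, a potassium chloride cotransporter, fell by -0.45 ± 0.13 (adjusted p = 0.0306). Wnk1 rose by 0.22 ± 0.065 (adjusted p = 0.0357) on its brightest probe, but its other probes gave 0.17 ± 0.099 and -0.14 ± 0.074. Under normexp the Wnk4 difference was 0.64 and that of Slc12a7 0.01, beside a median of 0.42 over all genes. For the interaction limma called 0 genes of these 4 lists and of the other corticosteroid-induced genes, with between 0 and 3 in a list at an unadjusted p under 0.05.

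**Figure D4:**
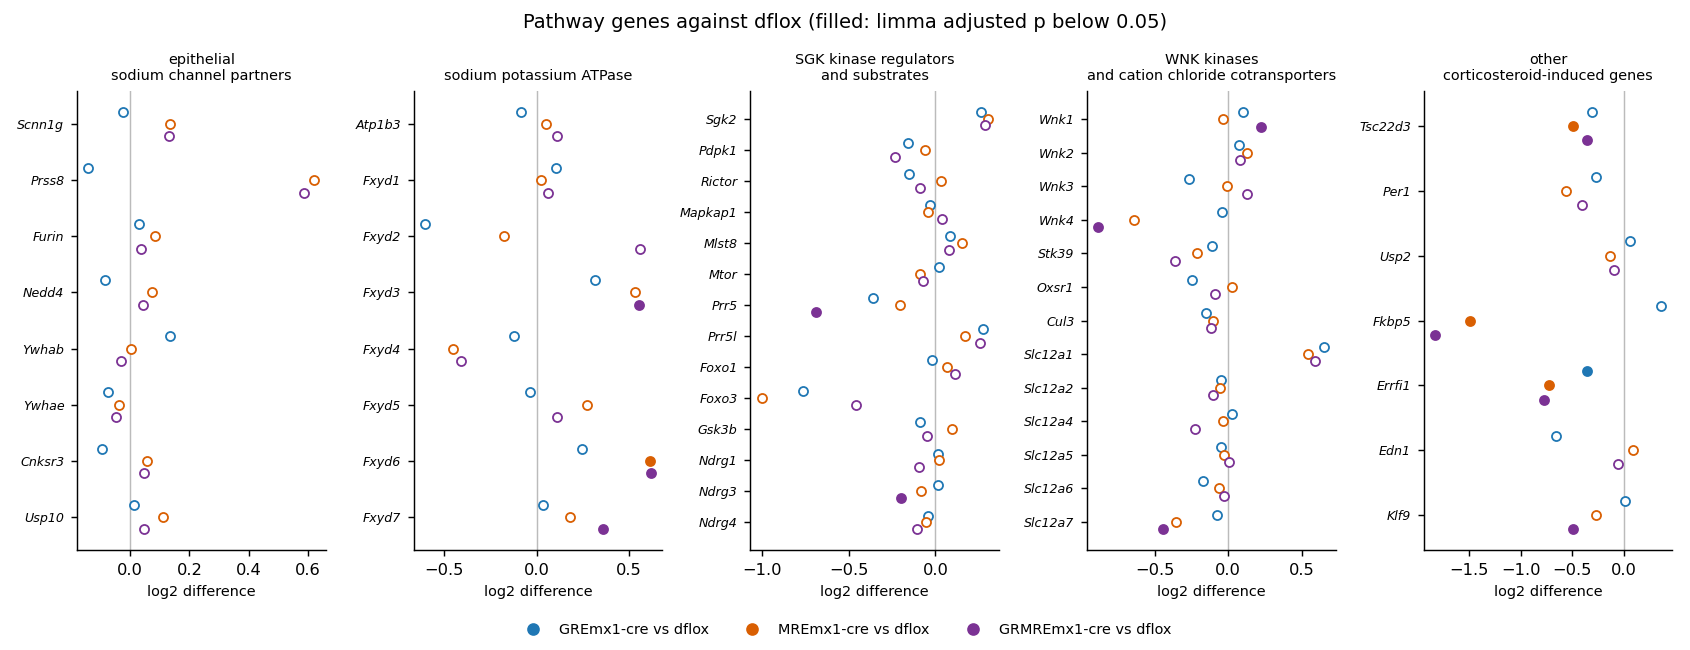
Log2 difference from dflox (x axis) of tested genes of the 5 pathway lists (y axis, the pump panel with beta and FXYD subunits) in GREmx1-cre, MREmx1-cre and GRMREmx1-cre, with filled points where limma's adjusted p is below 0.05. Filled points lie mostly in GRMREmx1-cre, where 16.3% of all genes tested were called, against 3.15% in GREmx1-cre and 6.8% in MREmx1-cre. The other corticosteroid-induced genes have the largest falls, down to -1.83 for Fkbp5.

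Sgk1 can be set beside 7 other tested genes that corticosteroids are known to induce. In GREmx1-cre, 1 of 7 fell, in MREmx1-cre 3 and in GRMREmx1-cre 4 (at limma's unadjusted p under 0.05, 3, 5 and 4 differed). Of all genes tested, 0.888%, 2.6% and 4.84% fell in these lines. The comparisons below are of the 7 corticosteroid-induced genes. The median log2 differences of these 7 genes from dflox were -0.27, -0.49 and -0.41. Errfi1, a feedback inhibitor of the EGF receptor, fell in all 3 lines, as Sgk1 did: by -0.36 ± 0.076 in GREmx1-cre (adjusted p = 0.0254), by -0.73 ± 0.076 in MREmx1-cre (adjusted p = 0.000251) and by -0.78 ± 0.082 in GRMREmx1-cre (adjusted p = 0.000114). Fkbp5, a co-chaperone of steroid receptors, fell in MREmx1-cre (-1.48 ± 0.21, adjusted p = 0.00144) and GRMREmx1-cre (-1.83 ± 0.23, adjusted p = 0.000269). In GREmx1-cre its arrays (-1.37 to -0.82) overlapped dflox (-2.10 to -0.88).

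Tsc22d3, which encodes the leucine zipper protein GILZ, fell in MREmx1-cre (-0.49 ± 0.096, adjusted p = 0.0096) and in GRMREmx1-cre (-0.36 ± 0.10, adjusted p = 0.0344). Its GREmx1-cre difference from dflox was -0.31 ± 0.096 and was not called (limma's unadjusted p = 0.00717). A second Tsc22d3 probe gave -0.36 ± 0.12 there. Klf9, a transcription factor, fell in GRMREmx1-cre (-0.49 ± 0.084, adjusted p = 0.00188). Its MREmx1-cre difference from dflox was -0.27 ± 0.078 and was not called (limma's unadjusted p = 0.00422). A second Klf9 probe gave -0.35 ± 0.10 in MREmx1-cre and -0.54 ± 0.11 in GRMREmx1-cre. Of the genes in this list and the 7 genes described here, Sgk1 and Errfi1 were the ones called in GREmx1-cre against dflox.

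The genes whose levels were most like those of Sgk1 over the 15 arrays, among 15875 genes with a symbol and a value on every array, were Plekhf1 (Pearson r = 0.96), Heph (0.88), Prl6a1 (0.86), Ezr (0.86) and Tnfrsf12a (0.85). The points share arrays and group differences, and these values are a description. Under normexp, r was 0.12 for Plekhf1, 0.13 for Heph, -0.33 for Prl6a1, 0.36 for Tnfrsf12a and 0.89 for Ezr. Plekhf1, which encodes an endosomal protein with a phosphoinositide-binding domain, ran from -1.75 to -1.16 in dflox, -2.35 to -2.05 in GREmx1-cre, -2.34 to -1.37 in MREmx1-cre and -2.42 to -2.20 in GRMREmx1-cre. It fell in GREmx1-cre (-0.85 ± 0.18, adjusted p = 0.0259) and GRMREmx1-cre (-0.98 ± 0.20, adjusted p = 0.0049), and gave -0.56 ± 0.18 in MREmx1-cre (adjusted p = 0.0884).

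Heph, a copper-containing ferroxidase, fell in GREmx1-cre (-0.67 ± 0.13, adjusted p = 0.0163) and GRMREmx1-cre (-0.90 ± 0.14, adjusted p = 0.000966). Ezr, the membrane-cytoskeleton linker ezrin, fell in GRMREmx1-cre (-0.60 ± 0.12, adjusted p = 0.00628), as did the TWEAK receptor gene Tnfrsf12a (-0.37 ± 0.091, adjusted p = 0.0153), which also fell in MREmx1-cre (-0.34 ± 0.085, adjusted p = 0.0307). Prl6a1 lay near the bottom of the scale, between -8.91 and -4.18. When each array was set against its group mean, so that group differences drop out, other genes were most like Sgk1, among them Tmed1 (r = 0.92), Rab34 (0.90), Denr (0.90) and Pbxip1 (0.89).

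The nearest genes of the other members were different ones. Nedd4l was most like Scrt2, Elmo2 and Ptchd4 (r = 0.96, 0.95 and 0.95), and Atp1b1 most like Arpc3, Cyth1 and Npnt (0.96, 0.94 and 0.94), of which Npnt is also one of the dentate granule cell markers. Scrt2, a neuronal transcriptional repressor, fell in MREmx1-cre (-0.50 ± 0.11, adjusted p = 0.0166) and GRMREmx1-cre (-0.43 ± 0.12, adjusted p = 0.0257). Arpc3, a subunit of the actin-nucleating Arp2/3 complex, fell in the same lines (-0.19 ± 0.052, adjusted p = 0.0442, and -0.33 ± 0.057, adjusted p = 0.00191). Sgk3 was most like Chpt1, Dap and Rsph4a (0.91, 0.89 and 0.89), Scnn1a like Tmod1, Cfap97 and Tmem175 (0.86, 0.86 and 0.78), Atp1b2 like Ccnc, Syt11 and Wdr74 (0.88, 0.80 and 0.80), and Ndrg2 like Eif2s1 and Rangap1 (0.87 and 0.86).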

How the data were processed

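Total RNA of whole hippocampus was labelled with Cy3 and hybridised to 15 single-colour Agilent arrays. Per the submitters' processing notes, signals came from Agilent Feature Extraction 12.0. Per the file headers, the deposited processed signal is an intensity in arbitrary units, already corrected for background, and flag columns (other values, 0 or 1) mark spots well above background, saturated spots and outliers. The series value table that the authors deposited held the same intensity at 45018 of 45018 spots on each array (relative tolerance 1e-06).

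Log2 intensities were centred on the 75th percentile of each array, taken over 43379 spots other than controls. Outlier spots were left out (1281 over all arrays) and spots of a probe averaged (41174 probes, of which 28223 had 1 symbol, 0 several and 12951 none, by accession in a RefSeq table of GRCm38.p6). Tests used probes that passed background on 3 or more arrays (30882), with the brightest probe of a gene, giving 22872 genes, of which 15945 had a symbol. One fit of group means over all arrays was made with limma 3.58.1 (R 4.3.3, lmFit and eBayes), with Benjamini-Hochberg adjustment at 0.05. The fit was checked on simulated data. The number of arrays limits the precision.

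The members and gene lists were chosen with earlier results of these data known. The rule for names takes the 7 members, Nr3c1, Nr3c2, up to 3 called genes of each pathway list with the smallest adjusted p in each comparison with dflox and in the interaction, and the genes most alike by Pearson r (5 for Sgk1, 3 for the others). Some genes that this rule takes are not reported here. Summed marker levels are sums of linear values relative to the 75th percentile. Same-numbered arrays of different groups shared a slide position: their deviations from the group means correlated at -0.03 to 0.19 (median 0.07), with 6 of 21 pairs over 0.1. Differently numbered arrays were not compared in this way, so these values cannot decide whether position had an effect. The main fit did not include the replicate numbers. The alternatives were other background correction, scaling, filters, probe averaging, fewer groups in the fit, a replicate block, outlier spots kept and each array left out. The files hold no mean signal column, so normexp (offset 50) used the median signal and median background. Promoter windows are RefSeq's, and no probe coordinates are given. Figures were drawn with matplotlib 3.10.9.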

Additional observations from a re-analysis of the deposited data

Results flagged for a closer look

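Nedd4l in MREmx1-cre replicate 2 stood apart from the rest of its group: its log2 level was -1.57, against -1.79 to -1.75 on the other 3 arrays. Its gap to the nearest array was 0.837 of the range of the group, over Dixon's critical value of 0.829 for 4 samples. It was 1 of 21 groups of 4 arrays examined for the 7 genes, and chance flags about 1 in 20. The same array had the low choroid plexus markers. Without it, the Nedd4l difference of MREmx1-cre from dflox was -0.45.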

How the results depend on the processing

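Over 1218 results of the 7 genes under 25 alternatives, 1124 kept their direction and side of the threshold, 40 lost the call, 22 gained it and 32 changed sign; the cause was not tested except where named. Normexp gave fitted background means of -30.6, -804 and -107 on the GRMREmx1-cre arrays, against -0.33 to 2.42 on the others, and moved the median of all genes in GRMREmx1-cre against dflox from 0.03 to 0.42. Under it the members called were 0 in GREmx1-cre and 0 in MREmx1-cre against dflox, 4 in GRMREmx1-cre against GREmx1-cre, 6 in GRMREmx1-cre against MREmx1-cre and 0 in MREmx1-cre against GREmx1-cre. Over all genes, normexp called 13, 105, 14094, 13676 and 173 in the same order of comparisons. Of the 14094 and 13676 calls, 78.3% and 78.8% were rises, so that member calls there are not particular to these genes. The Sgk1 difference was -0.83 in GREmx1-cre and -0.73 in MREmx1-cre, no longer called, and -0.60 in GRMREmx1-cre against MREmx1-cre, now called. Signs turned for Sgk3 in MREmx1-cre (0.015), for Nedd4l in GRMREmx1-cre against dflox (0.17), against GREmx1-cre (0.037) and in the interaction (0.37), and in GRMREmx1-cre for Prr5 (0.20), Wnk4 (0.64) and Slc12a7 (0.0089). Quantile normalization turned Sgk3 in GRMREmx1-cre against dflox (-0.042) and MREmx1-cre (-0.012), and median scaling did so too (-0.063 and -0.030), turned Atp1b2 in MREmx1-cre against GREmx1-cre (0.026) and called 0 members in GRMREmx1-cre against MREmx1-cre. Outlier spots kept turned Prr5 (1.93). With no filter on dim probes, which tests more genes, 1 member was called in MREmx1-cre against dflox, where Sgk1 (-0.71) was not. With only the groups compared in the fit, 0 members were called in GREmx1-cre and MREmx1-cre against dflox and in GRMREmx1-cre against MREmx1-cre (Sgk1 -0.83 and -0.71).

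Without MREmx1-cre replicate 2 and GREmx1-cre replicate 1 together, an alternative chosen after seeing the data, 0 members were called in GREmx1-cre against dflox and in GRMREmx1-cre against MREmx1-cre. Sgk1 was -0.77 in GREmx1-cre and -0.69 in MREmx1-cre, and Sgk3 turned in MREmx1-cre (0.093) and in GRMREmx1-cre against MREmx1-cre (-0.074). Leaving out 1 array at a time, members called ran from 0 to 1 in GREmx1-cre, 1 to 2 in MREmx1-cre and 2 to 4 in GRMREmx1-cre against dflox, from 0 to 1 in GRMREmx1-cre against MREmx1-cre and from 2 to 3 in MREmx1-cre against GREmx1-cre. Over all genes, the counts called in the same order ran from 275 to 785, 1015 to 1606, 2243 to 3893, 217 to 752 and 1440 to 2150. Sgk1 ran from -1.003 to -0.74 in GREmx1-cre and from -0.88 to -0.61 in MREmx1-cre against dflox, and from -0.0082 to 0.22 between these lines. Differences that changed sign were uncalled: Sgk3 in MREmx1-cre (-0.11 to 0.093) and GRMREmx1-cre (-0.074 to 0.13) against dflox and in GRMREmx1-cre against MREmx1-cre (-0.074 to 0.14), Scnn1a in GREmx1-cre against dflox (-0.15 to 0.027) and in GRMREmx1-cre against MREmx1-cre (-0.00038 to 0.12), Atp1b2 in MREmx1-cre against GREmx1-cre (-0.060 to 0.058) and the Nedd4l interaction (-0.11 to 0.027).

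With the replicate block, Atp1b1 in MREmx1-cre against dflox (-0.24, adjusted p = 0.0231) and Ndrg2 in MREmx1-cre against GREmx1-cre (0.24, adjusted p = 0.0497) were called, Wnk1 in GRMREmx1-cre was lost (0.23, adjusted p = 0.0537), and Sgk1 in GREmx1-cre stayed at -0.83; genes called in GREmx1-cre against dflox went from 721 to 930. Counts over all genes moved by more than 1.5 times as follows. In GREmx1-cre against dflox they were 13 with normexp, 425 with quantile normalization, 440 with median scaling, 471 with no filter, 346 with only the groups compared, 440 without both arrays that stood apart and 275 to 785 without 1 array. In MREmx1-cre they went from 1556 to 105, 1029 with median scaling, 695 with only the groups compared and 1015 to 1606 without 1 array, and in GRMREmx1-cre from 3719 to 14129 with normexp and 2243 to 3893 without 1 array. The others were 14094 with normexp and 2064 to 3783 without 1 array in GRMREmx1-cre against GREmx1-cre (3690), 13676, 420 with only the groups compared and 217 to 752 in GRMREmx1-cre against MREmx1-cre (681), and 173, 1238 and, without both arrays, 1129 in MREmx1-cre against GREmx1-cre (2134). For the interaction (295) they were 1 with normexp, 182 with median scaling, 138 with no filter, 186 without both arrays and 81 to 435 without 1 array. The share of calls that rose moved from 71.8% to 57.6% (quantile), 56.1% (median scaling) and 38.5% (normexp) in GREmx1-cre, from 61.8% to 50.9% (median scaling) and 41.9% (normexp) in MREmx1-cre, and from 70.3% to 47.4% (median scaling) in GRMREmx1-cre.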
